A study of Mus musculus with 6 samples.

Results

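Genes known as markers of neurons of the cerebral cortex, hippocampus and amygdala were described in arrays of the adult female mouse hypothalamus. The list held 9 genes, taken by symbol from the platform's probe annotation, and 7 of them had a probeset that the annotation gives to a single gene. These were Neurod2, Tbr1, Emx1, Cux2, Nrn1, Lamp5 and Rtn4r, each with 1 probeset, out of 16663 genes tested. The signals of Neurod6 and Bhlhe22 were not analysed here. All 7 passed the signal filter, a mean of at least 6 on the log2 scale over the 6 arrays. The medians of the arrays over all probesets were 8.19 to 8.21, and Tbr1 and Emx1 lay below them on every array.

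The control group (CON) was female C57Bl/6J mice that the labels call controls, with no further word on what they or their mothers received. The second group (CGP) was female C57Bl/6J offspring whose mothers received CGP 39551, an antagonist of the NMDA type of glutamate receptor, at 5 mg/kg by mouth from pregnancy until weaning was complete. The offspring were euthanized at 21 weeks, hypothalamic RNA of 18 mice was pooled in each group, and each group has 3 arrays. The labels do not say whether the 3 arrays came from separate pools, so that errors and p-values below cover only how arrays of a group differed, which may be technical. The labels name the hypothalamus as source, but their treatment text speaks of adrenal glands; hypothalamic genes were read for that reason. CGP replicate 1 stood apart from the other 5 arrays on the second principal component, and on the first it lay within the range of the CON arrays. Values that rest on this array are given with and without it.

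Neurons of the cerebral cortex, hippocampus and parts of the amygdala that release glutamate arise from the dorsal telencephalon, or pallium, while most neurons of the hypothalamus arise from another part of the forebrain. Their identity is set by transcription factors that act in sequence, from regional factors such as Emx1 to factors of maturing neurons such as Neurod2 and Tbr1. In a hypothalamic tissue block, such genes can be read from hypothalamic neurons that also use them or from neighbouring telencephalic tissue. In bulk RNA, fewer cells of a type and less RNA per cell cannot be told apart.

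None of the 7 genes passed an adjusted p of 0.05 in limma, while a trended and robust eBayes called 1 (Nrn1). At an unadjusted p of 0.05, 2 were higher with CGP (Rtn4r and Nrn1) and 0 were lower. Over all 18239 tested probesets, 5.25% were higher and 5.83% lower at that unadjusted p (958 and 1063 probesets), the shares beside which the unadjusted counts of every list below stand. By contrast, 0.154% were called higher and 0.126% lower by the adjusted p (28 and 23 of the probesets, or 37 and 18 after centring each array on its median). The largest difference was that of Rtn4r, 1.12-fold, and the interval that reached farthest from zero, also that of Rtn4r, ended at 1.20-fold.

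**Figure D1:**
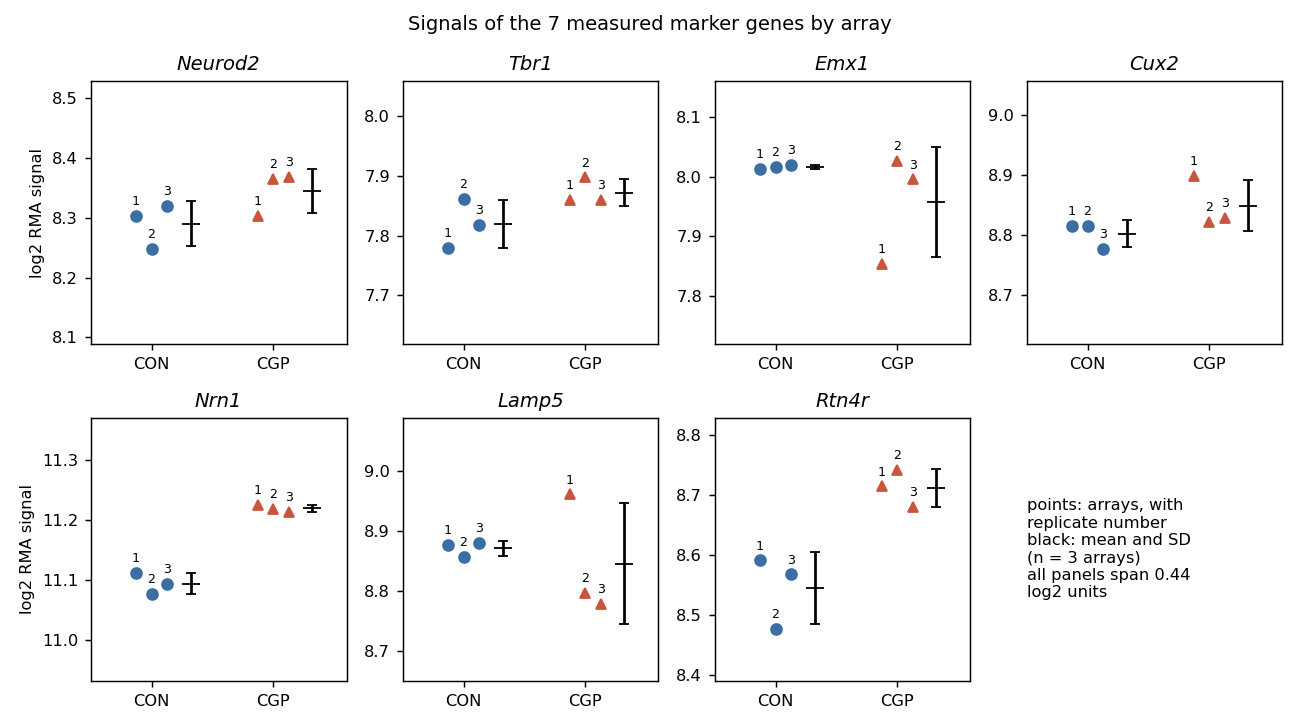
Log2 RMA signal of the 7 measured marker genes on each array, with circles for the 3 CON arrays and triangles for the 3 CGP arrays, each with its replicate number, and the mean and SD of each group in black. Each panel spans the same number of log2 units; the CGP arrays lie above all CON arrays for Nrn1, Rtn4r and, by a small margin, Cux2, while CGP replicate 1 stands apart from the other CGP arrays for Emx1 and Lamp5.

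Among the transcription factors, Neurod2 encodes a basic helix-loop-helix activator of maturing pallial glutamate neurons. Its signal was 8.30, 8.25 and 8.32 on the CON arrays and 8.30, 8.36 and 8.37 on the CGP arrays. The groups overlapped, since CGP replicate 1 lay below CON replicate 3. The difference was 0.055 on the log2 scale (standard error 0.039, 95% interval -0.034 to 0.14, adjusted p = 0.639 from limma). Tbr1, a T-box factor of early-born deep-layer cortical neurons, had signals of 7.78, 7.86 and 7.82 in CON and of 7.86, 7.90 and 7.86 in CGP. Here CON replicate 2 lay level with CGP replicates 1 and 3, and the difference of 0.053 (95% interval -0.034 to 0.14) did not pass the test (adjusted p = 0.643 from limma).

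Emx1 is a homeobox gene of the dorsal telencephalon. Its 3 CON arrays lay within a narrow range at 8.01, 8.02 and 8.02, and its CGP arrays were at 7.85, 8.03 and 7.995. CGP replicate 1 was the lowest array, and CGP replicate 3 also lay below all CON arrays. The difference of -0.058 (95% interval -0.17 to 0.056, adjusted p = 0.704 from limma) became -0.0053 without CGP replicate 1. Cux2, a homeobox gene of upper-layer cortical neurons, was at 8.81, 8.81 and 8.78 in CON and at 8.90, 8.82 and 8.83 in CGP. The groups did not overlap, but CGP replicates 2 and 3 were only just above CON. The Cux2 difference of 0.047 (95% interval -0.040 to 0.13, adjusted p = 0.680 from limma) became 0.023 without CGP replicate 1.

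A sequence feature that some of these genes share begins in the bases before their annotated start sites. Neurod factors are known to bind E-boxes, and the form CAGATG was searched on both strands (where it reads CATCTG on the gene's strand, it lies on the other) of windows from 250 bases before to 50 bases after each RefSeq start. The windows of 7 of the 9 listed genes were in the RefSeq table (build GRCm38.p6), with none for Nrn1 and Bhlhe22. Of these 7 genes, which include Neurod6, 3 held the motif in at least 1 window, against 19.2% of all 27025 genes in the table. By window, 3 of their 9 windows held it, against 17.2% of all 32851 windows. Of the measured genes, 6 had a window and 3 of these held the motif. Lamp5 and Cux2 have more than 1 window in the table, and the motif stands in only 1 window of each. The 3 matches are shown here to place the E-box beside the genes described, 5′ to 3′ on the strand of the gene, with the motif in capitals; they come from chr11:98329731-98329790 (minus strand, Neurod2), chr5:122047872-122047931 (minus strand, Cux2) and chr2:136057716-136057748 (plus strand, Lamp5).
Neurod2: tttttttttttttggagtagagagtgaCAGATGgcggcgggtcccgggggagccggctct
Cux2: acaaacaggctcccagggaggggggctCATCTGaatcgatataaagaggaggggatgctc
Lamp5: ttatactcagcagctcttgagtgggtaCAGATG
The motif begins 118, 79 and 5 bases before the start site, respectively, so that in Lamp5 it reaches the start site. The match is a description of the letters. The genes with it had differences of 0.055, 0.047 and -0.026 in the same order, and Rtn4r, which had the largest difference, has no match in its window, from which nothing follows about the factor.

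The other 3 measured genes encode proteins of the cell surface and membranes. Nrn1 encodes neuritin, a small protein anchored in the neuronal membrane that promotes the growth of neurites and whose expression is known to follow neuronal activity. Its signal was 11.11, 11.08 and 11.09 in CON (mean 11.09 ± 0.018, SD, n = 3 arrays) and 11.23, 11.22 and 11.21 in CGP (mean 11.22 ± 0.0065, SD, n = 3 arrays). The arrays of the groups lay apart, with the lowest CGP array above the highest CON array. On the log2 scale CGP minus CON was 0.13, or 1.09-fold (standard error 0.033, 95% interval 0.049 to 0.20), which did not pass the adjusted p in limma (0.266). It ranged from 0.12 to 0.14 over the alternative settings, and it passed in 1 of them, a trended and robust eBayes fit (adjusted p = 0.0225 from limma), where 113 probesets were called higher and 136 lower over all genes.

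Rtn4r encodes the Nogo-66 receptor, which binds myelin proteins and limits the growth of axons. It was at 8.59, 8.48 and 8.57 in CON (mean 8.55 ± 0.060, SD, n = 3 arrays) and at 8.71, 8.74 and 8.68 in CGP (mean 8.71 ± 0.031, SD, n = 3 arrays). All CGP arrays lay above all CON arrays, and CON replicate 2 was the lowest of the 6. CGP minus CON was 0.17, or 1.12-fold (standard error 0.043, 95% interval 0.069 to 0.27), which did not pass the adjusted p in limma (0.247). Without CON replicate 2, the difference of Rtn4r was 0.13.

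Lamp5 encodes a brain member of the LAMP family of lysosomal membrane proteins that is found in subsets of cortical neurons. Its CON arrays were at 8.88, 8.86 and 8.88, and its CGP arrays at 8.96, 8.80 and 8.78. CGP replicate 1 was the highest array of all 6 and the other CGP arrays were the lowest, so that the SD was 0.013 in CON and 0.10 in CGP. The difference was -0.026 (95% interval -0.15 to 0.095, adjusted p = 0.893 from limma). It became -0.084 without CGP replicate 1 (adjusted p = 0.372 from limma) and changed sign, to 0.0077, without CGP replicate 3.

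**Figure D2:**
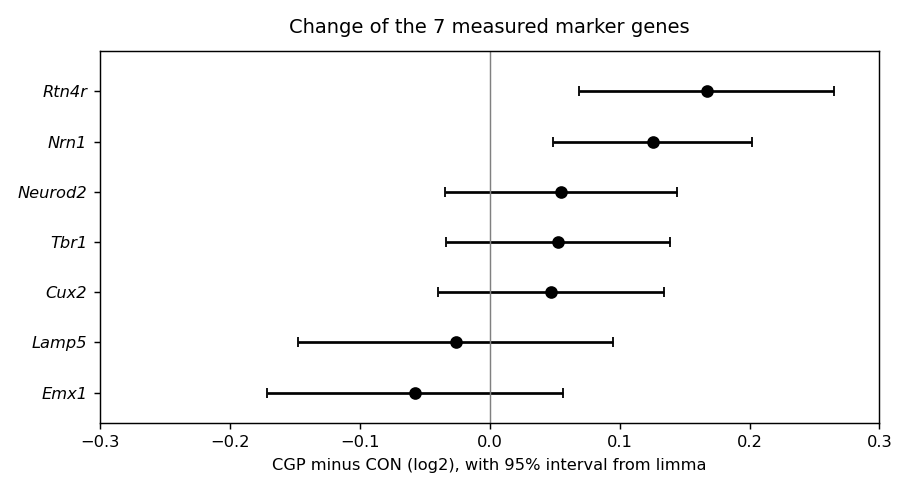
CGP minus CON on the log2 scale for the 7 measured marker genes, with the 95% interval from limma as bars and zero as a vertical line. The intervals of Rtn4r (0.069 to 0.27) and Nrn1 (0.049 to 0.20) lie above zero before adjustment over all probesets, and those of the other 5 genes include zero.

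As a group, 5 of the 7 genes had a higher mean in CGP and 2 a lower one, while 47.9% of all tested probesets had a higher mean. Their median difference was 0.053, against -0.0031 over all tested probesets. For 3 of the 7 genes (Cux2, Nrn1 and Rtn4r) the CGP arrays were all above the CON arrays, which held for 7.59% of all tested probesets. For 0 of the 7 the CGP arrays were all below the CON arrays, which held for 9.95% of all tested probesets. The median lay between 0.046 and 0.059 with any 1 array left out.

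Averaged over the 7 genes, the deviation from each gene's own mean was -0.018, -0.039 and -0.021 on the CON arrays and 0.028, 0.035 and 0.015 on the CGP arrays. Only Nrn1 and Rtn4r were below their own means on every CON array and above them on every CGP array. CGP replicate 1 was 0.10 above the Lamp5 mean, 0.073 above that of Cux2 and 0.13 below that of Emx1. On the second principal component over all tested probesets (21.7% of the variance) this array lay at -9.67 and the other 5 between -0.013 and 4.78. On the first component (35.0% of the variance) it lay at -0.90, within the CON range of -8.75 to -0.74. CGP replicates 2 and 3 lay at 8.05 and 6.40 on that component. The values without CGP replicate 1 stand above for Emx1, Cux2 and Lamp5. The tested genes outside the lists with the signals most like the mean of the 7 were Tmem175, a lysosomal potassium channel gene, Ncdn, the gene of the neuronal protein neurochondrin, and B4galnt4, a glycosyltransferase gene. Over the 6 arrays their Pearson correlations with that mean were 0.995, 0.992 and 0.992, and none of them passed the adjusted p in limma (0.281 to 0.558). They were picked as the highest among all tested genes outside the lists, over only 6 arrays. High correlations follow from that choice, and nothing is drawn from them.

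**Figure D3:**
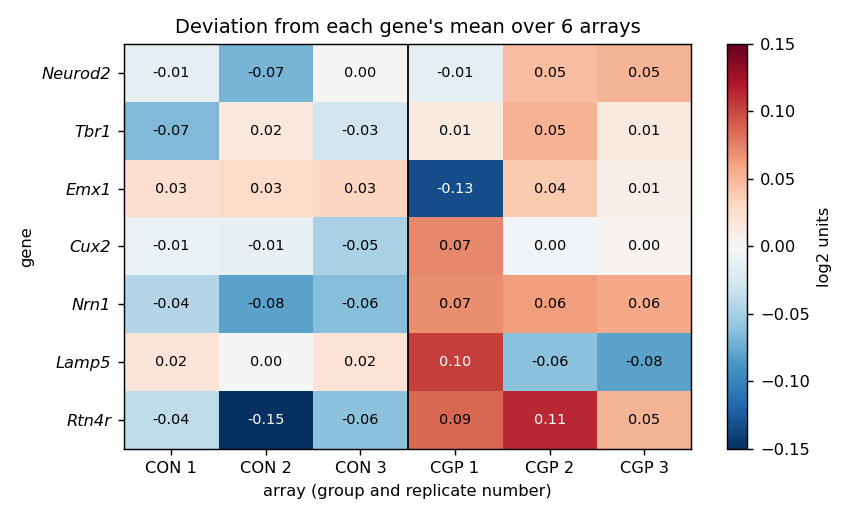
Deviation of each array from the gene's own mean over the 6 arrays, in log2 units, for the 7 measured marker genes, with CON arrays left and CGP arrays right of the black line. Nrn1 and Rtn4r are below their means on all CON arrays and above on all CGP arrays, and CGP replicate 1 deviates in opposite directions for Emx1 (-0.13) and Lamp5 (0.10).

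Other genes of telencephalic neurons were read from the same fit. Of 30 listed genes, 28 were tested, and none passed the adjusted p in limma (3 higher and 5 lower at an unadjusted p of 0.05, beside 5.25% and 5.83% of all probesets). Differences were positive for 14 and negative for 14, with a median of 0.0016. The arrays of the groups lay apart for 12, with CGP higher for 7 of them and lower for 5. Over all tested probesets, the shares apart were 7.59% with CGP higher and 9.95% with CGP lower. The largest difference was that of Slc30a3, the transporter that loads zinc into vesicles of cortical and hippocampal glutamate terminals. Its signal was 9.20, 9.13 and 9.14 in CON and 8.90, 9.004 and 8.94 in CGP, so that all CGP arrays were low. Its value of -0.21 (standard error 0.041, limma's adjusted p 0.137, or 0.0190 with the trended and robust eBayes) ran opposite to those of Nrn1 and Rtn4r.

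None of the broad markers of excitatory pallial neurons on this list passed. Camk2a, a kinase subunit of excitatory synapses, had a difference of 0.087 (adjusted p = 0.412 from limma). Slc17a7, the vesicular glutamate transporter of most cortical neurons, had one of 0.018 (adjusted p = 0.899), and Nrgn one of -0.014 (adjusted p = 0.916, limma). For Emx2, the relative of Emx1, the difference was -0.16 (adjusted p = 0.412), and for Cux1, the relative of Cux2, -0.047 (adjusted p = 0.657, limma). The arrays of the groups overlapped for both, and the Emx2 means of 6.78 in CON and 6.62 in CGP lay close to the filter. Probes of relatives can cross-hybridise, and the probe sequences were not examined.

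The Nogo receptor acts with co-receptors and binds several myelin ligands. Of 8 other genes of that system, none passed the adjusted p in limma (3 higher and 0 lower at an unadjusted p of 0.05, beside 5.25% and 5.83% of all probesets). The 3 were Rtn4rl1, a receptor relative, with signals of 10.49, 10.54 and 10.50 in CON and 10.80, 10.71 and 10.69 in CGP (difference 0.22, adjusted p = 0.116), the co-receptor gene Ngfr (0.15, adjusted p = 0.385) and the co-receptor gene Lingo1 (0.092, adjusted p = 0.435). For each of these 3, as for Rtn4r, the CGP arrays were all above the CON arrays, which held for 7.59% of all tested probesets. The ligand genes Rtn4 (0.0084, adjusted p = 0.954), Omg (-0.0093, adjusted p = 0.952) and Mag (-0.057, adjusted p = 0.688, limma) did not pass, nor did the receptor genes Rtn4rl2 (-0.015) and Tnfrsf19 (-0.011).

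Relatives of Neurod2 and Lamp5 were read in the same way. Of 14 tested basic helix-loop-helix and Id genes, none passed the adjusted p in limma (1 higher and 1 lower at an unadjusted p of 0.05), and the largest difference was that of Atoh1 (0.20, adjusted p = 0.306), whose mean signal of 6.71 lay close to the filter. Of 3 tested LAMP family genes, none passed (0 higher and 1 lower at an unadjusted p of 0.05), and that with the largest difference was Lamp2 (-0.12, adjusted p = 0.419).

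Markers of the labelled tissue were read, though without a detection p no gene can be called present or absent. The 11 hypothalamic genes tested had mean signals between 7.02 and 12.52, among them Hcrt, Oxt, Pmch and Avp, and none passed the adjusted p in limma (0 higher and 2 lower at an unadjusted p of 0.05), with a median of -0.0093. Rax and Crh had the lowest mean signals of these genes, below the medians of the arrays over all probesets (8.19 to 8.21). The largest difference of the hypothalamic genes was that of Nkx2-1, a homeobox gene of the developing hypothalamus (-0.14, adjusted p = 0.422 from limma). Agrp was not analysed here. None of 6 striatal genes passed in limma (3 higher and 0 lower at an unadjusted p of 0.05, beside 5.25% and 5.83% of all probesets). All 6 had positive differences, with a median of 0.094 and the largest for Pde10a (0.14, adjusted p = 0.245 from limma). For 4 of them the CGP arrays were all above the CON arrays, which held for 7.59% of all tested probesets. None of 8 genes listed as interneuron markers (Gad1, Gad2, Lhx6, Npy, Pvalb, Reln, Sst and Vip) passed either. Of these, 0 were higher and 2 lower at an unadjusted p of 0.05, with a median of -0.067 and the largest difference for Pvalb (-0.21, adjusted p = 0.183 from limma). Which cells of the hypothalamic block gave their signals was not tested.

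Among genes of other tissues, some passed the test, which called 0.154% of all tested probesets higher and 0.126% lower. For each of the 7 thalamic genes (median 0.24) the CGP arrays were all above the CON arrays, which held for 7.59% of all tested probesets. Of these genes, Ptpn3 (0.36, adjusted p = 0.0249 from limma) and Prkcd (0.27, adjusted p = 0.0467) rose and 5 did not pass. Ptpn3 had 12 tested probesets, of which only that with the highest mean was read. The CGP arrays were likewise all above the CON arrays for each of the 6 habenular genes (median 0.20). None of these passed (6 higher at an unadjusted p of 0.05, with Chrnb4 at 0.37, adjusted p = 0.0582 from limma). Of 9 choroid plexus genes, Ttr (0.84) and Slc4a5 (0.40) rose, 7 did not pass and the median was 0.21. For 8 of the 9 the CGP arrays were all above the CON arrays. Of 9 meningeal genes, 5 fell and 4 did not pass (median -0.26), and those that fell included Prg4 (-0.57), Ogn (-0.44), Fmod (-0.36) and Slc6a20a (-0.32). For 6 of the 9 the CGP arrays were all below the CON arrays, which held for 9.95% of all tested probesets. Of 7 olfactory genes, 4 fell and 3 did not pass (median -0.36), the 4 being Scgb1c1 (-1.65), Cyp2g1 (-0.85), S100a5 (-0.58) and Stoml3 (-0.36), while Gng8 had a positive difference (0.25, adjusted p = 0.157, limma). The CGP arrays were all above the CON arrays for Gng8 and all below them for the other 6. In CGP the mean was 5.81 for Scgb1c1 (7.45 in CON) and 5.95 for Cyp2g1 (6.81 in CON). The filter asked for a mean of 6 over all arrays, which Scgb1c1 and Cyp2g1 reached through CON. The sizes of their falls are therefore uncertain. The part of these tissues in the differences of the cortical markers was not tested.

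Nrn1 is known to follow neuronal activity, and so are the immediate early genes. Of 15 of these, 7 rose, 0 fell and 8 did not pass in limma, with a median of 0.20. Over all tested probesets, 0.154% were called higher and 0.126% lower. Npas4 rose by 0.40 (adjusted p = 0.0249 from limma), Fos by 0.38, Btg2 by 0.37 and Fosb by 0.35. Arc, known like Nrn1 from cortical and hippocampal neurons, had signals of 8.66, 8.63 and 8.55 in CON and of 8.73, 8.67 and 8.70 in CGP, a difference of 0.083 that did not pass (adjusted p = 0.513). Bdnf (0.046, adjusted p = 0.752) and Homer1 (-0.0061, adjusted p = 0.976, limma) did not pass either. Whether these genes and Nrn1 moved together was not tested.

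**Figure D4:**
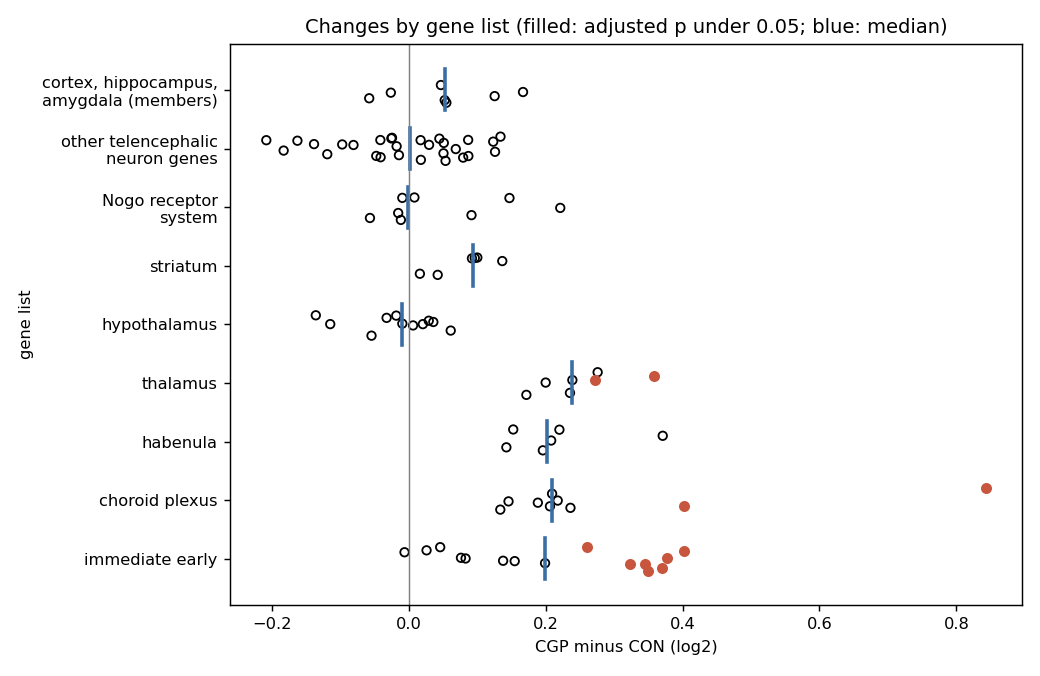
CGP minus CON on the log2 scale for the tested genes of 9 lists, 1 point per gene, filled where the adjusted p was under 0.05 in limma, with the list's median as a blue line and points spread vertically for legibility. The marker genes of cortex, hippocampus and amygdala (median 0.053) and the other telencephalic genes (median 0.0016) hold no filled point, while thalamic, choroid plexus and immediate early genes do.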

How the data were processed

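Hypothalamic RNA of 6 samples was measured on Affymetrix Mouse Gene 1.0 ST arrays. For 28471 probesets, log2 signals were deposited by the authors in 1 table. Per the labels it was made with RMA (background correction, quantile normalization, log2 and a summary per probeset) and Partek, for which no version was given. Values were used as deposited. The platform annotation gave 1 gene for 18690 probesets, several for 1163 and none for 8618. Probesets with 1 gene and a mean of at least 6 entered the fit, and 18239 remained. The contrast of CGP and CON was fitted with limma 3.58.1 (R 4.3.3; lmFit, eBayes, all 6 arrays, no covariate), with Benjamini-Hochberg adjustment over all tested probesets. The fit was tested on simulated data. Of several probesets of a gene, that with the highest mean was used. A gene rose or fell when its adjusted p was under 0.05.

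The genes and lists were chosen with earlier results of these data known. Every listed marker was named, and of each other list the genes past the test, up to 4, or otherwise that with the largest difference, with the hypothalamic genes also as a range, and the 3 genes most like the markers; other genes were named after their values were seen. Alternatives were the signal filter, the probesets entered, the moderation, array weights, centring, the replicate number as a block, averaging a gene's probesets and leaving out each array. Same-numbered arrays correlated at 0.078, -0.18 and 0.11 in their deviations from group means, so the numbers were not taken as pairs. No 2 arrays held the same values, and arrays correlated at 0.996 to 0.998. The number of arrays limits the precision.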

Additional observations from a re-analysis of the deposited data

How the results depend on the processing

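Over 15 alternative settings, 105 differences of the 7 marker genes were refitted, and 103 kept both direction and call. With a trended and robust eBayes, 1 marker gene was called higher (Nrn1) and 1 other telencephalic gene lower (Slc30a3, adjusted p = 0.0190 from limma), against 0 each in the fit reported. The difference of Lamp5 became 0.0077 without CGP replicate 3, and it was -0.084 without CGP replicate 1. That of Emx1 lay between -0.091 and -0.0053, that of Rtn4r between 0.13 and 0.19, that of Neurod2 between 0.034 and 0.076, that of Tbr1 between 0.033 and 0.073 and that of Cux2 between 0.023 and 0.061. With the replicate number as a block, 0 marker genes were called (adjusted p = 0.415 for Nrn1 and 0.396 for Rtn4r from limma) and 2 probesets were higher and 4 lower over all genes; the best match of a CON array was the CGP array of its number in 1 of 3 cases. Probesets called higher and lower, 28 and 23 in the fit reported, were 44 and 37 with a filter of 7, 39 and 38 with array weights, 113 and 136 with the trended eBayes, 2 and 2 over all probesets, 4 and 2 without moderation, and 2 to 5 and 3 to 8 with 1 array left out. The cause of these changes was not tested. The deposited table gives no detection p, so that no gene could be called absent.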
